A study of Mus musculus with 16 samples.

Results

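Tal1, Lmo2, Lyl1, Gata2 and Ldb1 are regulators of the earliest blood and endothelial cells. All probes that carry one of these gene names on the array were taken, and each gene had 1 probe, so the genes made up 5 of 36163 gene names and 5 of 55681 probes. They were followed in VE-cadherin+ cells of E11.5 mice, sorted by this junction protein of endothelial cells and by CD45, a surface protein of leukocytes, into CD45- cells (gate P3) and CD45+ cells (gate P4). The embryo proper and the yolk sac of control and of Tie-2-Etv2 animals were sorted in this way, which makes 8 groups of 2 arrays. In Tie-2-Etv2 animals an Etv2 transgene is turned on by a Tie-2 Cre transgene. All groups were of mixed strain (B6/CBA and others). Tie-2 Cre acts in endothelial cells and in blood cells that come from them, the control genotype is not described further, and for embryo CD45- transgenic samples the title has Tie-2 alone while the genotype label is Tie-2-Etv2.

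Tal1 and Lyl1 are basic helix-loop-helix factors that bind DNA at E-box sequences together with an E protein such as Tcf3. Lmo2 is a LIM-only protein that binds no DNA itself and bridges these factors to a GATA factor, and Ldb1 is the LIM-binding scaffold that joins such complexes to each other. Gata2 is the zinc finger GATA factor of blood progenitors, mast cells and endothelium, and gives way to Gata1 in red cells and megakaryocytes. Etv2, an ETS factor of the first mesodermal cells that form blood and vessels, is known to act upstream of several of these genes.

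What the array reads of each gene is a 60-base probe, of which the first 30 bases are shown so that the measured transcript can be traced. Coordinates are those of the files, on build mm9, and whether a probe lies in coding or untranslated sequence was not analysed here. No base is in capitals here, as no part of a probe is singled out.
Tal1 probe, chr4:114744219-114744278, + strand: acagcctataggccaacactgcgggcgtgt
Lmo2 probe, chr2:103821857-103821916, + strand: cttcattttgaggtgaggcgccccacagat
Lyl1 probe, chr8:87228531-87228590, + strand: gaggacctaccccatgaagcccaactggtt
Gata2 probe, chr6:88156362-88156421, + strand: aactgcataagcttaacccgctgatgagtg
Ldb1 probe, chr19:46107487-46107546, - strand: gagcagaagacggaataaagagactgggcg

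Promoter stretches of 300 bases, from RefSeq on build GRCm38.p6, were matched by symbol for 4 of the 5 genes, Lmo2 being the one not matched, and 8 stretches in all were found. They were searched on both strands for 4 motifs. The letters CCGGAA were taken as the core to which ETS factors bind. The letters AGATAA were taken as the motif of zinc finger factors such as Gata2, the GATA motif. An E-box, the site of bHLH factors, was searched as the letters CAGCTG. The last was the E-box-GATA composite (the last bases of an E-box, a gap of 7 or 8 bases and a GATA core), on which Tal1 and GATA complexes are known to sit. The composite can overlap a GATA motif or an E-box. The stretches of the bHLH genes and of Gata2 are shown because these genes differed most between the groups, with every match in capitals. Of 32851 stretches of this length in the table, 14.9% held the ETS core, 11.2% the GATA motif, 16.3% the E-box and 4.82% the composite.
Tal1, chr4:115056176-115056475, + strand: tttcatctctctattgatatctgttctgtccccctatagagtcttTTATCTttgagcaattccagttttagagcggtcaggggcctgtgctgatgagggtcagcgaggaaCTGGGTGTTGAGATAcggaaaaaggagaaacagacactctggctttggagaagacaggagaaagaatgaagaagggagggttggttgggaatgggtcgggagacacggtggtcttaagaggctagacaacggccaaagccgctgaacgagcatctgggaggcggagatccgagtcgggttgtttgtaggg
Tal1, chr4:115057561-115057860, + strand: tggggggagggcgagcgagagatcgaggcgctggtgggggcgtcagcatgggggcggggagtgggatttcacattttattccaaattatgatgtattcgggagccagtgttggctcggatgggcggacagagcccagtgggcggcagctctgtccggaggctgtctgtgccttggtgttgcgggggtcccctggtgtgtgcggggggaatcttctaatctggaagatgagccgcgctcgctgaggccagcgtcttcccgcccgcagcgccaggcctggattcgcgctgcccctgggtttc
Lyl1, chr8:84701207-84701506, + strand: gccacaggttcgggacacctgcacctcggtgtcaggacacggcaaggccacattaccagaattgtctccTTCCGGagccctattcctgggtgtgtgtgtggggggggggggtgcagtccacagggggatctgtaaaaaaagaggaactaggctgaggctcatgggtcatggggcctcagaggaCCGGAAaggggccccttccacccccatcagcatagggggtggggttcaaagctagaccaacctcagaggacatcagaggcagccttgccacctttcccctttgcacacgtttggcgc
Gata2, chr6:88193641-88193940, + strand: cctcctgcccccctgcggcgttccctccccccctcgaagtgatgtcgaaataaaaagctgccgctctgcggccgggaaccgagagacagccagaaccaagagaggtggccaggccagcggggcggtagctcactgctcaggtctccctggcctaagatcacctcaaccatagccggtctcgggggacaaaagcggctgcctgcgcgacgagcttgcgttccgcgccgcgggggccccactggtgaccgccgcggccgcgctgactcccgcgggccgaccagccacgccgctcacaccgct
Gata2, chr6:88198414-88198713, + strand: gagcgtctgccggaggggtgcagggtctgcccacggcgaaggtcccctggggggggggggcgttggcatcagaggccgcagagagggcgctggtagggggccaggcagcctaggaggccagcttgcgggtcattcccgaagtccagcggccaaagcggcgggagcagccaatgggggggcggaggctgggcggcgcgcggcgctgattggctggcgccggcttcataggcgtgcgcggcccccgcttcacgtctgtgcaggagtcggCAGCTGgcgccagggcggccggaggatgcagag
The first Tal1 stretch held 1 GATA motif, read as TTATCT from the other strand, and 1 composite, CTGGGTGTTGAGATA. The Lyl1 stretch held 2 ETS cores, the second Gata2 stretch 1 E-box, and the other 2 stretches shown held none of these letters. Ldb1 had 3 stretches, of which 1 (chr19:46037021-46037320, - strand) held 2 GATA motifs and the others no match. A match is a description of these letters, and a stretch without one says only that the letters are not in this window.

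Levels are log2 processed signals minus the 75th percentile of their array, differences are on the same log2 scale with their standard error (SE), and a difference was called at an adjusted p under 0.05 in a limma fit over all 16 arrays and 34126 probes. Whether both samples of a group stem from different embryos or litters is not said in the labels, so the p-values reflect the spread between these samples alone, which may be technical, and precision is limited by the number of arrays. All 5 genes were well above background on all 16 arrays, with processed intensities from 83.5 to 26000 units, so no level is a bound. Between 50.6% and 59.9% of an array's probes were well above background, and replicate arrays correlated at 0.972 to 0.991 across probes. Embryo arrays lay on a different slide from yolk sac arrays, and the gates on separate rows of both slides, so tissue and slide, and gate and row, cannot be told apart, while each genotype comparison lay within a slide and row. The sorting labels were met in part. Ptprc, the gene of CD45, was well above background on both arrays of each of the 4 CD45+ groups and on neither array of the CD45- groups except yolk sac CD45- Tie-2-Etv2 cells. Cdh5, the gene of VE-cadherin, lay between -0.66 and 0.33 on the CD45+ control arrays and between 5.52 and 5.99 on the CD45- control arrays. Between Tie-2-Etv2 and control cells Cdh5 differed by 3.25 in yolk sac CD45+ and 1.99 in embryo CD45+ cells (adjusted p = 4.69e-05 and 0.00703). It differed by -1.01 in yolk sac CD45- cells (0.0224) and by -0.38 in embryo CD45- cells (not called). Ptprc differed by -1.28 in yolk sac CD45+ cells (0.00827) and by -0.54 in embryo CD45+ cells (not called). In yolk sac CD45- cells Ptprc was called higher (1.82, adjusted p = 0.000895). Its control arrays there were not well above background, so this rise is given as at least 3.33-fold. In such bulk samples fewer cells of a type and less RNA per cell cannot be told apart.

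**Figure D1:**
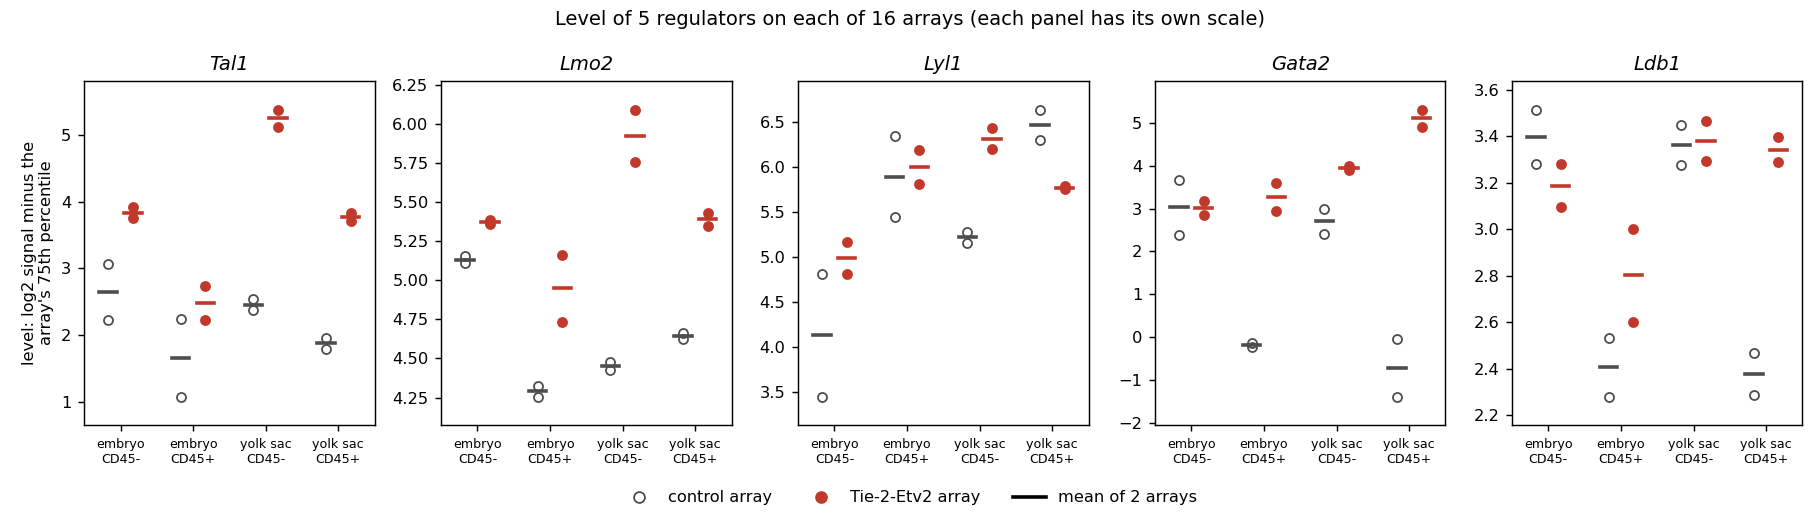
Level of each gene (y axis, log2 signal minus the 75th percentile of the array, own scale per panel) on every array, by tissue and gate (x axis); open circles are control arrays, filled circles Tie-2-Etv2 arrays and bars the mean of 2 arrays. Gata2 is lowest on the 4 CD45+ control arrays, between -1.39 and -0.05, and highest in yolk sac CD45+ Tie-2-Etv2 cells, at 5.31 and 4.90.

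The transgenic cells were compared with control cells of the same tissue and gate to see which of the 5 regulators moved with the Etv2 transgene. In the yolk sac, Tal1 and Lmo2 rose in both gates and Gata2 and Ldb1 in CD45+ cells, in the embryo Gata2 rose in CD45+ cells, and Lyl1 passed the test in no population. The adjusted p depends on how many probes differ, so an unadjusted p called in the yolk sac can miss the call in the embryo. In limma, Lmo2 in embryo CD45+ cells had an unadjusted p of 0.00377 (adjusted 0.0884). Lyl1 in yolk sac CD45- cells had 0.0223 (adjusted 0.0545). Counted by population, 4 of 5 genes rose in yolk sac CD45+ cells, where 30.5% of all probes were called (17.2% higher and 13.4% lower). In yolk sac CD45- cells 2 of 5 rose, with 39.9% of probes called (24.8% higher and 15.1% lower). In embryo CD45+ cells 1 of 5 rose, with 2.63% called (2.02% higher and 0.607% lower), and in embryo CD45- cells 0 of 5, with 1.14% called (1.12% higher and 0.0264% lower). In the last population limma gave an unadjusted p under 0.05 for Tal1 alone. The median difference of the 5 genes was 0.96, 1.25, 0.66 and 0.24 in this order, beside medians over all probes of 0.05, 0.18, -0.03 and -0.02. In yolk sac CD45- cells, where 8468 probes were called higher and 5161 lower, scaling on probes detected on all arrays turned the split to 5329 and 7442 and moved the median of all probes to -0.14. Relative to the median of all probes the differences were 2.62 for Tal1, 1.29 for Lmo2, 1.07 for Gata2, 0.92 for Lyl1 and -0.16 for Ldb1. These values are the same under both scalings by construction, since each scaling shifts all probes of an array alike, so they are no check of the scaling.

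**Figure D2:**
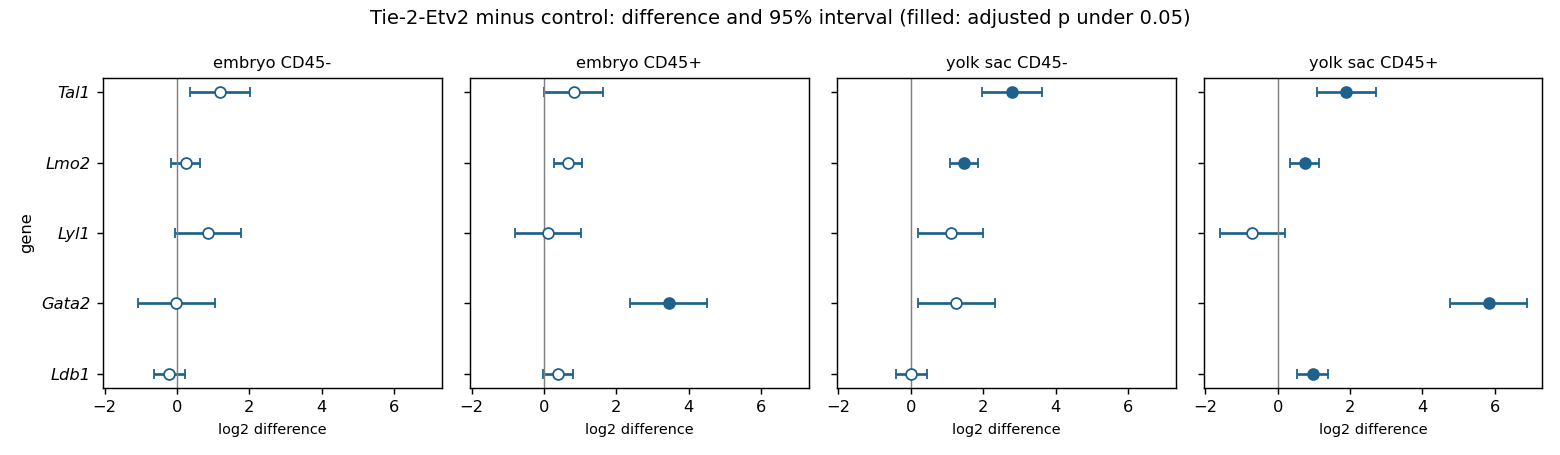
Difference between Tie-2-Etv2 and control cells (x axis, log2) for the 5 genes (y axis) in the 4 populations, with 95% intervals that are not adjusted for the number of probes; filled points passed an adjusted p of 0.05. Gata2 lies far to the right in both CD45+ populations (3.45 for the embryo, 5.83 for the yolk sac).

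Gata2, the GATA factor, had the largest differences of the 5 genes in CD45+ cells. In yolk sac CD45+ cells it stood at -1.39 and -0.05 on the control arrays and at 5.31 and 4.90 on the Tie-2-Etv2 arrays. Both transgenic arrays lay far above both control arrays, a difference of 5.83 ± 0.48 (SE, n = 2 against 2, 56.8-fold, adjusted p = 2.52e-05). The difference was 5.16 without control replicate 1, the lower of the control arrays, and 6.50 without control replicate 2. Embryo CD45+ cells gave -0.23 and -0.13 in controls and 2.95 and 3.59 in transgenic cells. The groups did not overlap, and the difference was 3.45 ± 0.48 (11.0-fold, adjusted p = 0.0043), with the call lost on the 4 compared arrays alone (adjusted p = 0.0923).

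CD45- cells differed less in Gata2. Embryo CD45- cells held it at 3.67 and 2.39 in controls and at 3.17 and 2.86 in transgenic cells, the transgenic arrays lying between the control arrays, with a difference of -0.02 (95% interval -1.08 to 1.05, adjusted p = 1.00). In yolk sac CD45- cells the values were 2.98 and 2.42 in controls and 4.00 and 3.90 in transgenic cells. These groups did not overlap, but the difference of 1.25 ± 0.48 did not pass the test (95% interval 0.19 to 2.32, adjusted p = 0.0608). It passed with normexp background correction (adjusted p = 0.0217), with a trended robust prior (0.0416) and on the 4 compared arrays alone (0.0218).

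The gate comparison asks how CD45+ cells differ from CD45- cells of the same tissue and genotype, and it shares its arrays with the genotype comparison. In control cells Gata2 was lower in the CD45+ gate, by 9.26-fold in the embryo (difference -3.21 ± 0.48, adjusted p = 0.000397) and 10.7-fold in the yolk sac (-3.42 ± 0.48, adjusted p = 0.000243), with no overlap of arrays in either tissue. The embryo difference was -2.58 without CD45- control replicate 1 and -3.85 without CD45- control replicate 2. In transgenic cells the gate difference was 0.26 in the embryo (95% interval -0.81 to 1.32, adjusted p = 0.743) and 1.16 in the yolk sac (0.09 to 2.22, adjusted p = 0.212). The genotype difference was larger in CD45+ than in CD45- cells by 3.47 ± 0.68 in the embryo (adjusted p = 0.0452, with 0.961% of probes called in this test) and by 4.58 ± 0.68 in the yolk sac (adjusted p = 0.00128, with 17% called). The embryo call was lost without any 1 of the 8 arrays other than CD45- control replicate 2 (adjusted p 0.0623 to 0.169), with all dim probes kept (0.0841) with detected-probe scaling (0.0504) and with the replicate number as a block over all arrays (0.0656) or within each tissue and genotype (0.163), and the yolk sac call was not. Ordered by level, the CD45+ controls of both tissues came last and overlapped each other. They were followed, 2.55 above the embryo ones, by a run of 4 groups whose neighbours overlapped (yolk sac CD45- control, embryo CD45- Tie-2-Etv2, embryo CD45- control and embryo CD45+ Tie-2-Etv2), then by yolk sac CD45- and yolk sac CD45+ Tie-2-Etv2 cells, each apart from the group before it.

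Marker genes moved in the same CD45+ comparisons as Gata2. Of all probes, 17.2% were called higher and 13.4% lower in yolk sac CD45+ cells, and 2.02% and 0.607% in embryo CD45+ cells. Of 8 endothelial markers 6 rose in yolk sac and 3 in embryo CD45+ transgenic cells, and their summed level (log2 of the sum of signals) went from 3.82-4.19 to 5.45-5.62 and from 3.99-4.32 to 4.57-4.89. Of 8 macrophage markers 8 fell in yolk sac CD45+ cells, from 10.4-10.8 to 6.76-7.14, and 1 fell in embryo CD45+ cells, from 10.5-10.6 to 9.37-9.90. Of 8 mast cell markers, 5 of which were tested, 3 rose and 1 fell in the yolk sac (1.54-3.04 to 5.86-6.15) and 2 rose in the embryo (1.86-2.78 to 5.16-5.89), while Fcer1a and Cma1 were well above background on neither array of these 4 groups. Of 8 megakaryocyte markers 6 rose and 2 fell in the yolk sac (8.86-9.35 to 7.64-8.10) and 5 rose in the embryo (8.14-8.49 to 7.62-7.79), so that their summed level was lower while most of them were higher. The part of these cell types in the Gata2 result was not tested.

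Tal1, the bHLH factor that blood formation requires, rose in both yolk sac populations. In yolk sac CD45- cells it stood at 2.54 and 2.37 in controls and at 5.38 and 5.12 in transgenic cells. The transgenic arrays were the highest of all 16, and the difference was 2.80 ± 0.37 (6.95-fold, adjusted p = 0.000249). Yolk sac CD45+ cells gave 1.79 and 1.96 in controls and 3.71 and 3.83 in transgenic cells, again with no overlap (1.89 ± 0.37, 3.72-fold, adjusted p = 0.00314). Both calls held without any 1 of the compared arrays, with differences of 2.67 to 2.93 and 1.81 to 1.98.

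In the embryo the Tal1 differences did not pass the test. Embryo CD45- cells gave 2.23 and 3.07 in controls and 3.75 and 3.92 in transgenic cells, without overlap, for a difference of 1.19 ± 0.37 (95% interval 0.37 to 2.01, adjusted p = 0.349). Embryo CD45+ cells gave 1.08 and 2.24 in controls and 2.23 and 2.73 in transgenic cells, and here the higher control array lay above the lower transgenic one (difference 0.82 ± 0.37, 95% interval from just below 0 to 1.64, adjusted p = 0.33). Set against the embryo, the yolk sac effect was larger by 1.61 in CD45- cells (adjusted p = 0.0654) and by 1.07 in CD45+ cells (adjusted p = 0.326), and neither value passed the test. The CD45- value passed with normexp (0.027), a stricter filter on dim probes (0.0495) and a trended robust prior (0.0402). It passed also with the replicate number as a block over all arrays (0.0393), and was 2.03 without embryo CD45- control replicate 1.

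Tal1 was lower in the CD45+ gate of transgenic cells, by 1.36 ± 0.37 on the log2 scale in the embryo (adjusted p = 0.0185) and by 1.48 ± 0.37 in the yolk sac (adjusted p = 0.0287). The yolk sac call was lost without any 1 of the 4 compared arrays (adjusted p 0.0889 to 0.155) and without a filter on dim probes (0.0536). The embryo call was lost on the embryo slide alone (0.0801) and without transgenic CD45- replicate 1 (0.0617), CD45- replicate 2 (0.0964) or CD45+ replicate 1 (0.126). In control cells the gate differences were -0.99 in the embryo (adjusted p = 0.0608) and -0.58 in the yolk sac (adjusted p = 0.255), neither past the test. The embryo control difference passed in 8 other fits, among them the one without CD45+ control replicate 2 (0.00583). By level, yolk sac CD45- transgenic cells lay 1.20 above the next array. Embryo CD45- and yolk sac CD45+ transgenic cells overlapped below them, then embryo CD45- control, embryo CD45+ transgenic and yolk sac CD45- control cells overlapped one with the next, and the CD45+ controls of both tissues overlapped at the bottom.

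Lyl1, the bHLH relative that can stand in for Tal1 in adult blood stem cells, passed the genotype test in no population. Yolk sac CD45- cells held it at 5.28 and 5.15 in controls and at 6.43 and 6.20 in transgenic cells. Both transgenic arrays were higher, but the difference of 1.10 ± 0.41 missed the threshold (95% interval 0.19 to 2.01, adjusted p = 0.0545). It passed under 6 alternatives, among them the yolk sac slide alone (adjusted p = 0.00626), and the 4 compared arrays alone (0.0147). In yolk sac CD45+ cells the values were 6.64 and 6.30 in controls and 5.75 and 5.78 in transgenic cells, so both transgenic arrays were lower there (-0.70 ± 0.41, -1.61 to 0.21, adjusted p = 0.23, and 0.0344 on the yolk sac slide alone). The genotype difference of Lyl1 in the yolk sac was thus lower in CD45+ than in CD45- cells, by -1.80 ± 0.58 on the log2 scale (-3.08 to -0.52, adjusted p = 0.0586). It missed the threshold and passed with normexp (0.0422), the strict filter (0.0445), the trended robust prior (0.0361) and the replicate number as a block over all arrays (0.0466) or within each tissue and genotype (0.00561).

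The embryo values of Lyl1 were spread widely between control arrays. Embryo CD45- cells gave 3.45 and 4.81 in controls and 4.81 and 5.16 in transgenic cells, the higher control array lying just below the lower transgenic one (difference 0.86 ± 0.41, 95% interval -0.05 to 1.77, adjusted p = 0.803). Embryo CD45+ cells gave 5.44 and 6.34 in controls and 5.81 and 6.19 in transgenic cells, which overlapped (0.11, -0.80 to 1.02, adjusted p = 0.96). Control replicate 1 lay below replicate 2 for Tal1, for Lyl1 and for Ldb1 in both embryo gates.

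Lyl1 was the one gene of the 5 called higher in CD45+ than in CD45- control cells. The difference was 1.76 ± 0.41 in the embryo (3.40-fold, adjusted p = 0.00638) and 1.25 ± 0.41 in the yolk sac (2.38-fold, adjusted p = 0.0344), and arrays did not overlap in either. The yolk sac call was lost without any 1 of the compared arrays (adjusted p 0.0613 to 0.144) and with quantile normalization (0.178), detected-probe scaling (0.105) or no filter on dim probes (0.0599). The embryo call was lost without CD45+ control replicate 2 (difference 1.32, adjusted p = 0.0531) and on the 4 compared arrays alone (0.102), and the difference was 1.08 without CD45- control replicate 1. In transgenic cells the gate difference was 1.01 in the embryo (0.10 to 1.92, adjusted p = 0.0917, and 0.00604 with the gates paired by replicate number) and -0.55 in the yolk sac (-1.46 to 0.36, adjusted p = 0.597). By level, yolk sac CD45+ control and yolk sac CD45- transgenic cells overlapped at the top, the embryo CD45+ groups and yolk sac CD45+ transgenic cells overlapped one with the next below them, then yolk sac CD45- control and embryo CD45- transgenic cells overlapped, and embryo CD45- control cells came last.

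Lmo2, the bridging protein, rose in the yolk sac by less than Tal1 on the log2 scale, a comparison of differences and not of levels. Yolk sac CD45- cells gave 4.48 and 4.43 in controls and 6.09 and 5.75 in transgenic cells. All of the transgenic arrays were above the controls (1.47 ± 0.18, 2.77-fold, adjusted p = 0.000144), and the call held without any 1 of the 4 arrays. Yolk sac CD45+ cells gave 4.63 and 4.66 in controls and 5.43 and 5.35 in transgenic cells, with no overlap (0.74 ± 0.18, 1.68-fold, adjusted p = 0.00927). That call was lost without transgenic replicate 1 (difference 0.70, adjusted p = 0.0645) and on the 4 compared arrays alone (0.0713).

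In the embryo Lmo2 lay at 5.15 and 5.11 in CD45- control and at 5.36 and 5.39 in CD45- transgenic cells (difference 0.24 ± 0.18, 95% interval -0.15 to 0.63, adjusted p = 0.983). Embryo CD45+ cells gave 4.26 and 4.32 in controls and 4.73 and 5.16 in transgenic cells (0.66 ± 0.18, 0.27 to 1.05, adjusted p = 0.0884, and 0.038 with a trended robust prior). The transgenic arrays were higher in both gates, with neither difference past the test. In CD45- cells the yolk sac difference exceeded the embryo difference by 1.23 ± 0.25 (adjusted p = 0.0124, with 14.2% of probes called), a call lost with quantile normalization (0.76, adjusted p = 0.0723) and without yolk sac transgenic replicate 1 (1.06, adjusted p = 0.0542).

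Lmo2 was lower in CD45+ than in CD45- control cells of the embryo (-0.84 ± 0.18, adjusted p = 0.00361, and 0.102 on the 4 compared arrays alone). In the yolk sac controls it differed by 0.19 (95% interval -0.20 to 0.59, adjusted p = 0.433), and the sign turned under quantile normalization (-0.18) and detected-probe scaling (-0.07). Transgenic cells gave gate differences of -0.42 in the embryo (adjusted p = 0.101) and -0.53 in the yolk sac (adjusted p = 0.102). The embryo value passed with quantile normalization (-0.72, adjusted p = 0.0104) and detected-probe scaling (-0.61, 0.02), and was -0.64 without CD45+ transgenic replicate 2. The yolk sac value passed with normexp (0.0492) and a trended robust prior (0.047). In the order of levels 5 of 7 neighbours were apart, from embryo CD45+ control cells at the bottom to yolk sac CD45- transgenic cells at the top, with the largest step, 0.53, before the last.

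Ldb1, the scaffold, varied least. Its group means spanned 1.02 on the log2 scale, a range larger than that of 31.1% of all probes, beside 1.63 for Lmo2, 2.34 for Lyl1, 3.59 for Tal1 and 5.83 for Gata2, where the median probe spanned 1.46. In yolk sac CD45+ cells it stood at 2.29 and 2.47 in controls and at 3.29 and 3.40 in transgenic cells. The groups were apart (0.96 ± 0.19, 1.95-fold, adjusted p = 0.00342, and 0.0503 on the 4 compared arrays alone). Yolk sac CD45- cells gave 3.45 and 3.28 in controls and 3.47 and 3.30 in transgenic cells, which overlapped (0.02, 95% interval -0.40 to 0.44, adjusted p = 0.956), and the sign turned with quantile normalization (-0.31) and detected-probe scaling (-0.30).

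Embryo CD45- cells held Ldb1 at 3.28 and 3.51 in controls and at 3.09 and 3.28 in transgenic cells (-0.21 ± 0.19, 95% interval -0.63 to 0.21, adjusted p = 1.00). Embryo CD45+ cells gave 2.28 and 2.53 in controls and 2.60 and 3.00 in transgenic cells (0.40 ± 0.19, -0.03 to 0.82, adjusted p = 0.369). Neither embryo difference passed the test, the transgenic arrays being the lower ones in the CD45- gate and the higher ones in the CD45+ gate.

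In control cells Ldb1 was lower in the CD45+ gate by about the same amount in both tissues, -0.99 ± 0.19 in the embryo (adjusted p = 0.00207, and 0.0797 on the 4 compared arrays alone) and -0.98 ± 0.19 in the yolk sac (adjusted p = 0.00209). The difference between these gate differences was 0.01 (95% interval -0.59 to 0.61, adjusted p = 0.998). In transgenic cells the gate difference was -0.39 in the embryo (-0.81 to 0.04, adjusted p = 0.164) and -0.04 in the yolk sac (-0.46 to 0.38, adjusted p = 0.96). The genotype difference in the yolk sac was larger in CD45+ than in CD45- cells by 0.95 ± 0.27 (adjusted p = 0.0362), a call lost without a filter on dim probes (0.0847) and without any 1 of the 8 arrays other than CD45+ control replicate 2 (0.0643 to 0.121). By level the CD45+ controls of both tissues overlapped at the bottom, embryo CD45+ transgenic cells came next, and the other 5 groups lay within 0.21 of each other in their means.

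Tests of differences between effects called Lmo2 for genotype by tissue in CD45- cells (14.2% of probes called) and Gata2 and Ldb1 for genotype by gate as given, where Lyl1 in the yolk sac fell short with the opposite sign. Genotype by tissue in CD45+ cells (2.68% of probes called), gate by tissue in control cells (1.18%) and gate by tissue in Tie-2-Etv2 cells (6.47%) had 0 of the 5 genes past limma's test. At an unadjusted p under 0.05 each of these had 1 gene, namely Gata2 (2.37 ± 0.68, adjusted p = 0.101), Lmo2 (1.04 ± 0.25, adjusted p = 0.101) and Lyl1 (-1.56 ± 0.58, adjusted p = 0.16, and 0.0208 with the gates of a tissue and genotype paired by replicate number). The Gata2 value passed with normexp (2.18, adjusted p = 0.0398) and was 3.04 without yolk sac CD45+ control replicate 2. The Lmo2 value passed with a trended robust prior (0.0443).

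**Figure D3:**
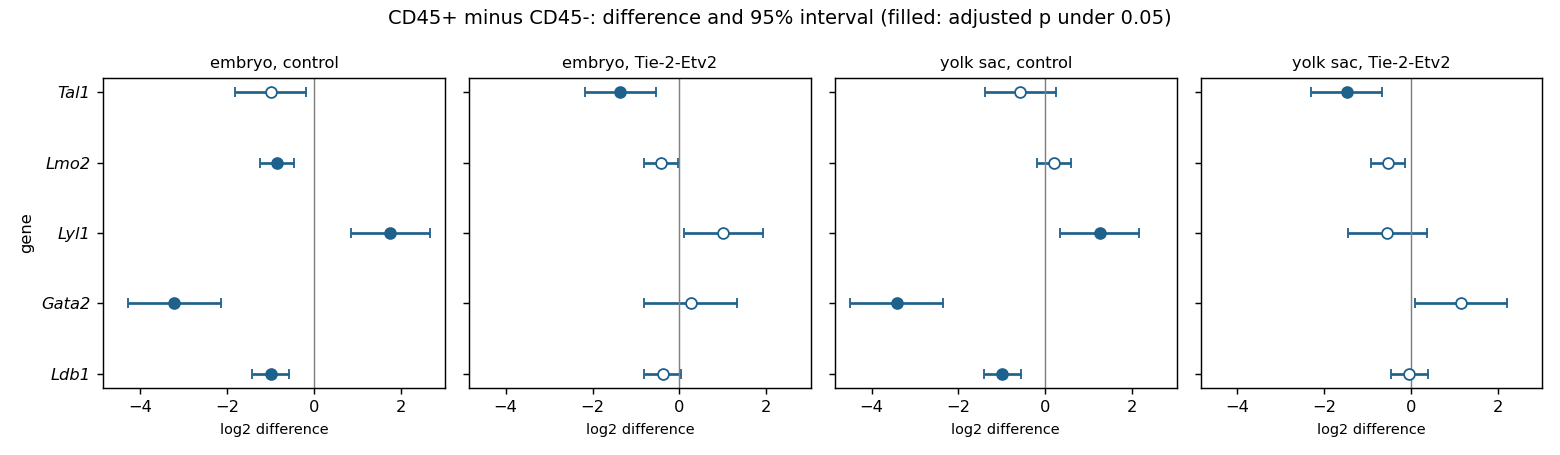
Difference between CD45+ and CD45- cells (x axis, log2) for the 5 genes (y axis) in each tissue and genotype, with 95% intervals not adjusted for the number of probes; filled points passed an adjusted p of 0.05. Gata2 lies at -3.21 and -3.42 in control cells and at 0.26 and 1.16 in transgenic cells, and Lyl1 lies above 0 in both control panels.

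Over the gate comparisons, 3 of 5 genes were lower and 1 higher in embryo CD45+ control cells, where 35.5% of all probes were called (19% higher, 16.6% lower), and 2 were lower and 1 higher in those of the yolk sac, where 36.9% were called (21.5% higher, 15.4% lower). In transgenic cells 1 of 5 was lower in each tissue, with 29.1% of probes called in the embryo (15.4% higher, 13.7% lower) and 9.64% in the yolk sac (4.11% higher, 5.53% lower). The median of the 5 gate differences was -0.99 and -0.58 in embryo and yolk sac control cells, and -0.39 and -0.53 in transgenic cells, beside 0.07, 0.19, 0.08 and 0.06 for all probes. With detected-probe scaling the called probes, split 6477 higher and 5650 lower in embryo control, 7338 and 5266 in yolk sac control and 5247 and 4680 in embryo transgenic cells, became 5328 and 7069, 5134 and 6821, and 4156 and 5815. All 8 endothelial markers were lower and all 8 leukocyte and 8 macrophage markers higher in the CD45+ gate of control cells in both tissues, and their part in the gate differences of the 5 genes was not tested.

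The tissue comparison set yolk sac against embryo cells of the same gate and genotype. In CD45- transgenic cells Tal1 (1.41 ± 0.37, adjusted p = 0.0173), Lyl1 (1.33 ± 0.41, adjusted p = 0.0348) and Lmo2 (0.55 ± 0.18, adjusted p = 0.0412) were higher in the yolk sac, 3 of 5 genes where 28.3% of all probes were called (16.4% higher, 11.9% lower). None of these calls held under quantile normalization (adjusted p 0.0581 to 0.424) or detected-probe scaling (0.0577 to 0.236), with which the split of all called probes went from 5582 higher and 4065 lower to 3185 and 5662. Tal1 fell short also without embryo replicate 1 (0.0926), embryo replicate 2 (0.0633) or yolk sac replicate 1 (0.107), and Lyl1 without any 1 of the 4 arrays (0.0792 to 0.168) or without a filter on dim probes (0.0629). Lmo2 fell short without embryo replicate 1 (0.156), embryo replicate 2 (0.136) or yolk sac replicate 1 (0.265, difference 0.38), without a filter on dim probes (0.0940) and on the 4 compared arrays alone (0.121).

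In CD45+ transgenic cells Gata2 was higher in the yolk sac by 1.84 ± 0.48 (adjusted p = 0.0369), 1 of 5 genes where 10.7% of probes were called (4.43% higher and 6.29% lower, split 1511 to 2146, and 1108 to 2732 with detected-probe scaling). That call was lost without any 1 of the compared arrays (adjusted p 0.0579 to 0.247), without a filter on dim probes (0.0695) and on those arrays alone (0.0529), and Tal1 lay close to the threshold (1.29 ± 0.37, adjusted p = 0.0508). Between control tissues, Lmo2 was lower in yolk sac CD45- cells by 0.68 ± 0.18 on the log2 scale (adjusted p = 0.0364), 1 of 5 genes where 10.5% were called (4.94% higher, 5.53% lower), and this call too was lost without any 1 of the 4 arrays (0.0764 to 0.175), on those arrays alone (0.153), with all dim probes kept (0.0839) and with quantile normalization (0.0687). In CD45+ control cells 0 of 5 genes passed limma's test and 0 had an unadjusted p under 0.05, with 1.52% of probes called (0.548% higher, 0.97% lower). Of 8 yolk sac endoderm markers 5 or 6 were higher in the yolk sac in each of these 4 comparisons and none was lower. Their summed level was 6.17 to 9.19 on yolk sac arrays and 2.51 to 6.28 on embryo arrays, and their part in the tissue differences was not tested.

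Of the direct partners of the complex, Gata1, the GATA factor of red cells and megakaryocytes, rose in all 4 transgenic populations. Yolk sac CD45- cells held it at 0.25 and -0.35 in controls and at 5.67 and 5.23 in transgenic cells (5.50 ± 0.45, 45.3-fold, adjusted p = 1.45e-05). The difference was 4.68 in yolk sac CD45+ cells (adjusted p = 5.21e-05), 4.10 in embryo CD45- cells (adjusted p = 0.000763) and 2.12 in embryo CD45+ cells (adjusted p = 0.0352). So Gata1 passed the test in embryo CD45- cells, where none of the 5 regulators did.

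Runx1, the factor that blood-forming endothelium needs, rose in yolk sac CD45- cells, from -1.12 and -1.35 to 3.63 and 3.14 (4.62 ± 0.67, adjusted p = 0.000439). In embryo CD45- cells, where its control arrays stood far apart at 0.67 and -2.15, the difference of 1.78 did not pass (adjusted p = 0.584). Fli1, an ETS partner, rose by 1.00 in yolk sac CD45- cells (adjusted p = 0.00626). Erg, the ETS partner shared by endothelium and stem cells, fell by 1.81 on the log2 scale in yolk sac CD45- cells (adjusted p = 0.0304) and rose by 4.15 in yolk sac CD45+ cells (adjusted p = 0.000445), where 1 of 2 control arrays was well above background. In embryo CD45+ cells Erg went from -3.56 and -4.26 to a transgenic mean of -1.44 ± 0.63 (SD, n = 2), without overlap and short of the threshold (2.47 ± 0.58, adjusted p = 0.055).

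Tcf3, the E protein that pairs with Tal1 and Lyl1, rose by 0.80 ± 0.17 in yolk sac CD45+ cells (adjusted p = 0.00428) and differed by -0.27 to 0.11 elsewhere. Cbfa2t3, a corepressor of the Tal1 complex, passed in no population, with differences from -0.34 to 0.84. Etv2 itself, read here by its brightest probe alone, was called in the yolk sac, in CD45- cells from -2.60 and -2.95 to 3.90 and 3.26 (adjusted p = 0.000543) and in CD45+ cells from -6.20 and -2.09 to 2.11 and 1.76 (adjusted p = 0.000906), with 1 of these 2 control arrays well above background. In the embryo it went from -0.14 and -0.13 to 2.58 and 2.13 in CD45- cells (adjusted p = 0.608), and from -2.39 and -2.75 to 0.11 and 0.94 in CD45+ cells (adjusted p = 0.135), with no overlap and no call. These embryo differences of Etv2 were 2.50 and 3.09, each with an SE of 0.96. That SE is shared by all groups, among them the widely spread yolk sac CD45+ control arrays. Tek, the gene of Tie-2, whose values were seen before it was chosen for mention, rose beside Gata2 by 5.02 in yolk sac CD45+ cells (adjusted p = 7.94e-06) and by 3.51 in embryo CD45+ cells (adjusted p = 0.000261).

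**Figure D4:**
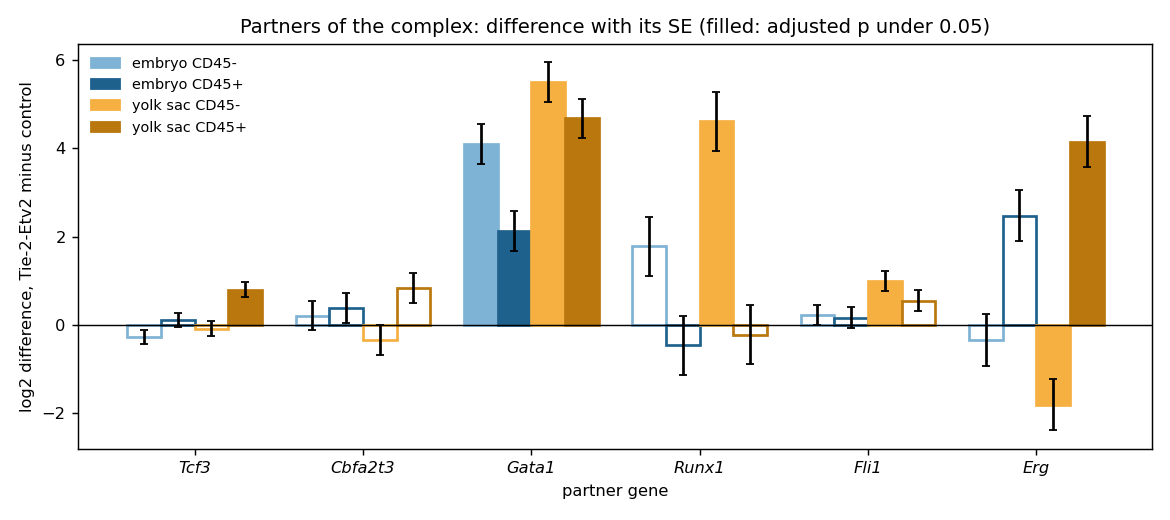
Difference between Tie-2-Etv2 and control cells (y axis, log2, with its SE as the error bar) for 6 partner genes (x axis) in the 4 populations; filled bars passed an adjusted p of 0.05. Gata1 is filled in all 4 populations, from 2.12 to 5.50, and Erg points down at -1.81 in yolk sac CD45- and up at 4.15 in yolk sac CD45+ cells.

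The counts for the wider lists around the complex stand against shares of all probes called of 39.9% in yolk sac CD45-, 30.5% in yolk sac CD45+, 2.63% in embryo CD45+ and 1.14% in embryo CD45- cells, so calls were more frequent in the yolk sac over all probes too. Of 12 genes known as its blood targets, 7 rose and 1 fell in yolk sac CD45- cells, 6 rose and 1 fell in yolk sac CD45+ cells, 5 rose in embryo CD45+ cells and 4 rose in embryo CD45- cells. The median of the 12 differences was 2.71, 2.00, 1.40 and 0.86 in this order. Gfi1b, a repressor needed for red cells and megakaryocytes, rose by 6.08 in yolk sac CD45- cells (67.5-fold, adjusted p = 3.69e-06), and Itga2b, the integrin of megakaryocytes and early blood progenitors, rose by 7.17 in yolk sac CD45+, 4.78 in embryo CD45+ and 4.33 in embryo CD45- cells. Each is named where it was the largest called increase of the list, and neither was confined to these populations. Mean Itga2b went from 1.07 to 6.45 in yolk sac CD45- cells. Mean Gfi1b went from -1.18 to 3.68 in yolk sac CD45+, from -0.47 to 1.78 in embryo CD45+ and from -1.81 to 2.13 in embryo CD45- cells. Among the blood targets that fell, Slc4a1, the anion exchanger of red cells, dropped by 1.65 in yolk sac CD45- cells and Epor, the erythropoietin receptor, by 2.38 in yolk sac CD45+ cells. Mean Epor was higher in transgenic CD45- cells, going from 2.19 to 3.41 in the yolk sac and from 1.06 to 1.88 in the embryo. In embryo CD45+ cells it went from 2.75 to 1.83. Gata1 and Runx1 stand in this list and in another.

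Of 7 tested endothelial targets, 0 rose and 2 fell in yolk sac CD45- cells, with Kdr, a VEGF receptor, falling by 1.04 on the log2 scale. In yolk sac CD45+ cells 3 rose and 1 fell, Esam, a junction protein, rising by 4.18 and Mef2c falling by 0.81. In embryo CD45+ cells 3 rose, Esam by 2.58, and in embryo CD45- cells 0 passed limma's test, with 0 at an unadjusted p under 0.05. The medians were -0.61, 0.89, 0.66 and -0.29. These medians, like those of the other lists, stand beside medians of all probes of 0.18, 0.05, -0.03 and -0.02.

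Of 7 E proteins and Id inhibitors, 4 fell in yolk sac CD45- cells (15.1% of all probes called lower), and 2 rose and 3 fell in yolk sac CD45+ cells (17.2% called higher, 13.4% lower; medians -2.41 and -0.92). Id3, an inhibitor that keeps E proteins from DNA, fell by 3.19 on the log2 scale in yolk sac CD45- cells (adjusted p = 7.7e-05) and by 3.07 in yolk sac CD45+ cells (adjusted p = 0.000126). In the embryo, where 1.14% and 2.63% of all probes were called, 0 of 7 passed limma's test in either gate, with 1 at an unadjusted p under 0.05 in each (medians -0.29 and -0.12 in CD45- and CD45+ cells). Of 7 tested LIM and LDB relatives, 3 rose and 1 fell in yolk sac CD45- cells and 5 rose in yolk sac CD45+ cells (medians 0.10 and 1.25), and 0 passed in the embryo, with 0 and 3 at an unadjusted p under 0.05 in limma (medians -0.19 and 0.49 in CD45- and CD45+ cells). Ldb2, the relative of Ldb1, fell by 1.14 in yolk sac CD45- cells (adjusted p = 0.0498) and rose by 3.99 in yolk sac CD45+ cells (adjusted p = 7.88e-05), and Ssbp2, which binds LDB proteins, rose by 1.26 in yolk sac CD45- cells (adjusted p = 0.00133). Mean Ssbp2 went from 3.27 to 4.97 in yolk sac CD45+, from 3.31 to 4.15 in embryo CD45+ and from 3.35 to 3.25 in embryo CD45- cells.

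Of 5 GATA and bHLH relatives and cofactors, 2 rose and 1 fell in yolk sac CD45- cells, where Gata3 fell by 2.82 on the log2 scale (adjusted p = 0.00286). In yolk sac CD45+ and embryo CD45+ cells 2 rose, and in embryo CD45- cells 1 rose, with medians of -0.34, 0.84, 0.39 and 0.79 in this order. Of the 3 partners Runx1, Fli1 and Erg, 2 rose and 1 fell in yolk sac CD45- cells, 1 rose in yolk sac CD45+ cells and 0 passed in the embryo, with 1 in each gate at an unadjusted p under 0.05 in limma (medians 1.00, 0.55, and 0.22 and 0.16 in embryo CD45- and CD45+ cells).

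Markers of blood cells moved beside Tal1 and Lmo2 in CD45- transgenic cells too. Of all probes, 24.8% were called higher and 15.1% lower in yolk sac CD45- cells, and 1.12% and 0.0264% in embryo CD45- cells. In yolk sac CD45- cells 8 of 8 leukocyte markers rose (summed level 1.94-2.05 to 8.49-8.96) and 7 of 8 megakaryocyte markers rose (2.54-2.97 to 9.47-9.80), while 6 of 8 endothelial markers (9.07-9.29 to 7.18-7.48) and 6 of 8 mural markers (5.40-5.42 to 2.44-2.49) fell. In embryo CD45- cells 6 of 8 leukocyte markers (2.34 on both arrays to 6.28-6.51) and 6 of 8 megakaryocyte markers (2.89-3.46 to 7.72-8.28) rose, although none of the 5 regulators passed the test there. Of 8 erythroid markers 1 was called higher and 1 lower in yolk sac CD45- cells (median difference -0.87, 3 at an unadjusted p under 0.05) and 1 lower in yolk sac CD45+ cells (median -0.77). In the embryo limma called 0 of them, with 1 in each gate at an unadjusted p under 0.05 (medians 0.77 in CD45- and 0.22 in CD45+ cells). The erythroid counts in the yolk sac did not exceed the shares of all probes, 13.4% being called lower in its CD45+ cells. The part of these cell types in the differences of the 5 genes was not tested.

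The genes with the profile most like each regulator were sought among 16529 probes with a symbol that were well above background on both arrays of every group, by the root mean square difference between group means, each centred on its own mean, over the 8 groups. For Gata2 they were Dock5 (0.31), Spns2 (0.36) and Ctla2a (0.56), beside a median of 1.89 over all these probes. Tal1 lay closest to Hace1 (0.29), Gp1bb (0.31), a subunit of the platelet glycoprotein Ib receptor, and Macrod2 (0.32), beside a median of 1.16. Lyl1 lay closest to Tango2 (0.17), Coa4 (0.17) and Zbtb45 (0.18), beside 0.755. For Lmo2 the nearest were Pdxp (0.10), Bbs9 (0.13) and Pwwp3a (0.14), and for Ldb1 Egfl8 (0.09), Guk1 (0.10) and Taok2 (0.10), beside 0.618 and 0.595. None of the 5 genes was among the 3 nearest of another. Among themselves Lmo2 and Ldb1 had the most similar profiles (0.41) and Lyl1 and Gata2 the least similar (2.17), a measure that grows with the range of the genes compared.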

How the data were processed

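Each of the 16 samples was hybridised to a 1-colour Agilent array, with Feature Extraction 10.7 named in the submitters' processing notes. The processed signals are intensity values that the authors' scanner software had background-subtracted and detrended, per the file headers, with positions on build mm9. Replicate spots were averaged, control and outlier spots were left out (87 of 55681 probes lost), and log2 signals were set against the 75th percentile of each array. Probes well above background on both arrays of a group were kept (34126), and a model of 8 group means was fitted by limma 3.58.1 (R 4.3.3, lmFit and eBayes, 8 residual and 2.32 prior degrees of freedom) with Benjamini-Hochberg adjustment over all probes of a contrast, two-sided. There were 12 comparisons and 6 differences between effects, which share arrays.

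The deposited value table holds the authors' log2 values of the same arrays. Set against the scanner values it proved shifted per array and centred per probe within a tissue and gate, in the same direction, and why its columns keep different constants is unknown. The column medians were, for control replicates 1 and 2 and Tie-2-Etv2 replicates 1 and 2, 0.1747, -0.0945, 0.0281 and -0.0323 for CD45- cells of the embryo and 0.1663, -0.0837, 0.0055 and -0.0324 for its CD45+ cells. For the yolk sac the CD45- columns had medians of 0.0851, -0.1826, 0.0156 and -0.0045, and the CD45+ columns 0.1468, 0.0033, -0.0089 and -0.1214. The table served as an alternative for genotype effects.

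Probes were named through RefSeq's table for GRCm38.p6, 26582 by accession, 2602 by symbol and 492 by synonym, with 26005 left unnamed, and a gene of a list was represented by its brightest probe. Named were the 5 genes, 6 direct partners, the largest increase and the largest decrease called in each list per genotype comparison, and the 3 nearest profiles of each gene. The 5 genes, the lists and the markers were chosen with earlier results of these data known. Alternatives were quantile normalization, detected-probe scaling, normexp (offset 50), no or a stricter filter on dim probes, 1 probe or the probe mean per gene, a trended robust prior, the compared arrays alone, the slide alone, a replicate block, a replicate block within tissue and genotype (chosen after seeing the data) and leaving out each array. The procedure was tested on simulated data. Python 3.11.15, pandas 2.3.3, numpy 2.4.6 and matplotlib 3.10.9 were used besides.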

Additional observations from a re-analysis of the deposited data

Results flagged for a closer look

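In 4 cases the test of a difference between effects passed an adjusted p of 0.05 in limma's fit, each with 2 arrays per group. These tests ask whether the genotype effect on a gene differed between tissues or gates. All of these calls except that of Gata2 in the yolk sac were lost under some alternatives or left-out arrays. The genotype difference of Lmo2 in CD45- cells was 1.23 ± 0.25 (SE) larger in the yolk sac than in the embryo (adjusted p = 0.0124). That of Gata2 was 3.47 ± 0.68 larger in CD45+ than in CD45- cells of the embryo (adjusted p = 0.0452, and 0.163 with the gates paired by replicate number) and 4.58 ± 0.68 larger in those of the yolk sac (adjusted p = 0.00128). That of Ldb1 was 0.95 ± 0.27 larger in CD45+ than in CD45- cells of the yolk sac (adjusted p = 0.0362). Tissue and slide, and gate and slide row, cannot be told apart in these differences.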

How the results depend on the processing

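Over the alternatives and left-out arrays, none of the called differences of the 5 genes changed sign. Of the values for called single comparisons 270 kept their call and 56 lost it, and of those for uncalled ones 37 gained it and 27 changed sign. For differences between effects the counts were 50, 21, 15 and 31. Processed signals set no bound on any of the 5 genes, and 2 arrays per group limit every value.

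The number of the 5 genes called changed by over 1.5 times as follows. With quantile normalization it was 3 instead of 1 for the gate in embryo Tie-2-Etv2 cells, and 0 for genotype by tissue in CD45- cells (1), for tissue in CD45- Tie-2-Etv2 cells (3) and in CD45- control cells (1), the usual number being in parentheses. With detected-probe scaling it was 2 for the gate in embryo Tie-2-Etv2 cells, 0 for genotype by gate in the embryo (1) and 0 for tissue in CD45- Tie-2-Etv2 cells. With normexp it was 4 for genotype in yolk sac CD45- cells (2), 2 for the gate in yolk sac Tie-2-Etv2 cells (1), 1 for genotype by tissue in CD45+ cells (0), 2 for it in CD45- cells and 2 for tissue in CD45+ Tie-2-Etv2 cells (1). Without a filter on dim probes it was 0 for the gate in yolk sac Tie-2-Etv2 cells, genotype by gate in the embryo, and tissue in CD45+ Tie-2-Etv2 and CD45- control cells, and 1 for genotype by gate in the yolk sac (2) and tissue in CD45- Tie-2-Etv2 cells. With the trended robust prior it was 2 for genotype in embryo CD45+ cells (1), the gate in yolk sac Tie-2-Etv2 cells, tissue in CD45+ Tie-2-Etv2 cells and genotype by tissue in CD45- cells, 4 for genotype in yolk sac CD45- cells and genotype by gate in the yolk sac, and 1 for gate by tissue in control cells (0). On the compared arrays alone it was 0 for genotype in embryo CD45+ cells, 2 for yolk sac CD45+ (4) and 4 for yolk sac CD45- cells, 1 for the gate in embryo control cells (4), 2 for it in embryo Tie-2-Etv2 cells, and 0 for tissue in CD45+ Tie-2-Etv2 and CD45- control cells. On the slide alone it was 0 for the gate in embryo Tie-2-Etv2 cells. The strict filter gave 2 for genotype by tissue in CD45- cells, and this filter, 1 probe per gene and the probe mean per gene each gave 2 for tissue in CD45+ Tie-2-Etv2 cells. Smaller changes were to 5 for the gate in embryo control cells with quantile normalization, detected-probe scaling, normexp, the trended robust prior and either replicate block, and for the gate in yolk sac control cells (3) to 2 with quantile normalization, detected-probe scaling and no filter on dim probes and to 4 on the slide alone and with the gates paired. The slide alone also gave 5 for genotype in CD45+ and 3 in CD45- cells of the yolk sac, the strict filter and the block over all arrays 3 in the latter, and normexp, the strict filter and either block 3 for genotype by gate in the yolk sac. The cause of these changes was not tested.

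Without 1 array the number ranged from 0 to 2 for the gate in embryo Tie-2-Etv2 cells, genotype by tissue in CD45- cells and tissue in CD45- Tie-2-Etv2 cells, from 4 to 5 for the gate in embryo control cells, from 1 to 2 for genotype by gate in the yolk sac and from 3 to 4 for genotype in yolk sac CD45+ cells. It ranged from 0 to 1 for genotype by gate in the embryo, genotype by tissue in CD45+ cells and tissue in CD45- control cells. It was 0 to 0 for the gate in yolk sac Tie-2-Etv2 cells and tissue in CD45+ Tie-2-Etv2 cells, and 2 to 2 for the gate in yolk sac control cells.

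The replicate numbers were not taken to pair the samples, since the labels tie them to nothing shared. Deviations of same-numbered arrays correlated at 0.0286 to 0.264 over the 4 genotype pairs (1 above 0.1). They correlated at 0.0451 to 0.377 over the 4 pairs of gates of the same tissue and genotype (3 above 0.1). Over all 28 pairs of groups the range was -0.0534 to 0.377 (8 above 0.1), so the highest value was that of a pair of gates. A pairing of the gates by number is therefore possible, and the main gate and genotype by gate tests do not model it. With the number as a replicate block the count was 0 for genotype by gate in the embryo, where Gata2 fell short (adjusted p = 0.0656), 2 for genotype by tissue in CD45- cells and 2 for tissue in CD45+ Tie-2-Etv2 cells. The block also gave Lyl1 in yolk sac CD45- genotype (0.0431), Lyl1 in yolk sac genotype by gate (0.0466) and Tal1 in the embryo control gate (0.0371) a call. A replicate block within tissue and genotype, which pairs the gates and was chosen after seeing the data, gave 2 for the gate in embryo Tie-2-Etv2 cells, 1 for gate by tissue in Tie-2-Etv2 cells (0) and 0 for genotype by gate in the embryo (Gata2, 0.163). It gave calls to Lyl1 in the first (0.00604), in the second (0.0208) and in yolk sac genotype by gate (0.00561) and to Tal1 in the embryo (0.00758) and yolk sac (0.0483) control gates, and changed no other call among those tests.

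Signs turned for uncalled values alone. With quantile normalization and detected-probe scaling, in this order, Gata2 gave 0.0072 and 0.0050 for genotype in embryo CD45- cells, and Ldb1 -0.31 and -0.30 for genotype in yolk sac CD45- cells, -0.10 and -0.11 for genotype by tissue in CD45- cells, -0.076 and -0.062 for tissue in CD45- Tie-2-Etv2 and 0.029 and 0.047 in CD45- control cells, and -0.044 and -0.057 for gate by tissue in control cells (-0.018 with normexp). Lmo2 gave -0.18 and -0.073 for the gate in yolk sac control cells, -0.023 and -0.032 for genotype by tissue in CD45+ cells and 0.13 and 0.046 for gate by tissue in Tie-2-Etv2 cells, Lyl1 -0.20 and -0.10 for genotype by tissue in CD45- cells, and Tal1 0.065 and 0.030 for gate by tissue in Tie-2-Etv2 cells.

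Without 1 array, Gata2 ranged from -0.65 to 0.62 for genotype in embryo CD45- cells, -0.063 to 0.58 for the gate in embryo Tie-2-Etv2 cells, -0.96 to 0.31 and -1.21 to 0.13 for tissue in CD45- and CD45+ control cells, and -0.88 to 0.46 for gate by tissue in control cells. Ldb1 ranged from -0.069 to 0.10 for genotype in yolk sac CD45- cells, -0.13 to 0.047 for the gate in yolk sac Tie-2-Etv2 cells, -0.15 to 0.081 and -0.15 to 0.099 for tissue in CD45- and CD45+ control cells and -0.12 to 0.13 for gate by tissue in control cells. Lmo2 ranged from -0.32 to 0.11 for gate by tissue in Tie-2-Etv2 cells and -0.13 to 0.30 for genotype by tissue in CD45+ cells. Lyl1 ranged from -0.34 to 0.56 for genotype in embryo CD45+ cells, -0.44 to 0.92 for genotype by tissue in CD45- cells and -1.20 to 0.17 for gate by tissue in control cells. Tal1 ranged from -0.61 to 0.22 and -0.37 to 0.80 for tissue in CD45- and CD45+ control cells, -0.95 to 0.21 for genotype by gate in the embryo, and -0.17 to 0.99 and -0.37 to 0.13 for gate by tissue in control and Tie-2-Etv2 cells.

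The count of all probes called moved by over 1.5 times for genotype in embryo CD45+ cells (897, alternatives 0 to 1305, without 1 array 353 to 1182), embryo CD45- cells (390, 128 to 423) and yolk sac CD45+ cells (10425, 5300 to 11760, 6630 to 9907), and without 1 array in yolk sac CD45- cells (13629, 8575 to 11674). It moved likewise for the gate in embryo control cells (12127, 7021 to 13858) and, without 1 array, in yolk sac Tie-2-Etv2 cells (3289, 1931 to 2334). For tissue it was 3657 (2021 to 4752, 748 to 2609) in CD45+ Tie-2-Etv2, 518 (0 to 609, 346 to 1191) in CD45+ control, 9647 (7206 to 11075, 4341 to 7464) in CD45- Tie-2-Etv2 and 3572 (2360 to 4425, 1109 to 3095) in CD45- control cells. For differences between effects it was 4843 (2738 to 6504, 1738 to 4462) and 913 (341 to 1326, 115 to 2021) for genotype by tissue in CD45- and CD45+ cells, 328 (167 to 388, 203 to 488) for genotype by gate in the embryo, and 401 (191 to 457, 152 to 630) and 2208 (1412 to 2763, 1153 to 1783) for gate by tissue in control and Tie-2-Etv2 cells. In embryo CD45+ cells normexp turned the split of called probes from 690 higher and 207 lower to 767 and 538.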

Other observations

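The lists around the 5 genes were also set against the gate in control cells, where 35.5% of all probes were called in the embryo (19% higher, 16.6% lower) and 36.9% in the yolk sac (21.5% higher, 15.4% lower). Of 7 endothelial targets tested, 6 were lower and 1 higher in embryo CD45+ than in CD45- cells, and 4 were lower and 1 higher in those of the yolk sac (medians -3.40 and -1.27). Of 7 E proteins and Id inhibitors 6 were lower and 1 higher in the embryo and 4 lower in the yolk sac (medians -1.58 and -1.08), while of 12 blood targets 6 were higher and 2 lower in the embryo and 3 higher and 2 lower in the yolk sac (medians 1.14 and -0.26). The blood target count in the yolk sac, 5 of 12, is near the share of all probes. In Tie-2-Etv2 cells of the yolk sac, with 9.64% of all probes called, the gate passed the test for 0 of the 7 E proteins and Id inhibitors in limma, with 2 at an unadjusted p under 0.05, and for 2 of 7 endothelial targets, both lower (medians -0.15 and -0.42). Between tissues, 7 of 12 blood targets were higher in yolk sac than in embryo CD45- Tie-2-Etv2 cells (median 1.84, with 16.4% of all probes called higher and 11.9% lower), and 6 of 7 E proteins and Id inhibitors were lower there (median -1.62).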
